A study of Mus musculus with 8 samples.

Results

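The genes of sterol and fatty acid synthesis were taken as 32 named mouse genes, and the probe set of each was found by its Entrez gene number. All 32 had a row, of 24012 genes tested in all. By role they were 8 genes of the mevalonate pathway, 11 of the steps from farnesyl diphosphate through squalene to cholesterol, 6 of sterol sensing and transport, and 7 of fatty acid synthesis and desaturation. The arrays measured total RNA of primary macrophages (BMDM), grown for 7 days from femur and tibia marrow of WT mice aged 8 to 10 weeks in medium with 30% L cell-conditioned medium, which supplies the growth factor M-CSF. Cells were replated at 150000 per well, and all wells had 15% L cell-conditioned medium and fetal bovine serum. The next day 4 samples received hepcidin, the peptide hormone of iron control, at 10 µg/ml for 1 h (Hepcidin 1 to 4), and 4 were the PBS controls (PBS 1 to 4). The mouse strain is not given in the sources used here. Nor do the labels say whether a replicate number stands for an animal, a culture or a day, so the p-values reflect the scatter among these 8 samples alone, which may be of technical origin.

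Cholesterol is built from acetyl-CoA through mevalonate, squalene and lanosterol. The enzymes are switched on together by SREBP transcription factors, which the escort protein SCAP carries from the endoplasmic reticulum to the Golgi for cleavage when membrane sterol is low, and which INSIG proteins hold back when it is high. SREBPs also drive fatty acid synthesis and desaturation. Macrophages make membrane lipid for growth, take up lipid from dead cells and export the surplus cholesterol.

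Values are log2 levels made by the authors with RMA. The levels of different probe sets are not amounts that can be set against each other, so levels are compared only within a gene, or with an edge of background. Array medians lay between 4.87 and 4.95. All 8 measured macrophage markers lay above 5.64, the 90th percentile of 24 markers of T, NK and B cells and endothelium with PBS, which is used here as the edge of background. None of 6 adipocyte markers did. Of the markers that set the edge, 0 of 9 for T and NK cells, 0 of 7 for B cells and 3 of 8 for endothelium lay above it, the last being Kdr (7.53), Vwf (7.17) and Pecam1 (5.72). The summed level of the adipocyte list was 6.77 to 6.95 with PBS and 6.73 to 6.87 with hepcidin.

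At rest the mean over the 4 PBS arrays lay above the edge of background for each of the 32 members. For Fdps, at 5.65 ± 0.78 (SD, n = 4), and Idi1, at 5.66 ± 0.50, it lay at the edge, where differences on this scale are compressed. Msmo1, a methylsterol oxidase gene, was at 10.46 ± 0.38. The spread over PBS arrays was itself unequal. It was widest for Fads2, whose 4 PBS arrays ran from 5.81 to 8.87, and smallest for Ggps1, at 8.55 ± 0.08.

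The 4 replicate numbers differed far more in these genes than the treatments did, and they did so in the same way with PBS and with hepcidin. In bulk samples, fewer cells of a type and less RNA per cell cannot be told apart. Levels were low on both arrays numbered 1, low again for most sterol genes on both arrays numbered 4, and high on numbers 2 and 3. In limma, an F test of the 4 numbers with treatment as a covariate called 22 of 32 members (adjusted p under 0.05 over all genes), against 5.6% of all genes. They were 5 of 8 mevalonate genes, 10 of 11 genes of the later sterol steps, 3 of 6 of sensing and transport, and 4 of 7 fatty acid genes. Of all 24012 genes, 10016 lay above the edge of background with PBS, against 32 of 32 members, which bears on every share of all genes. Among genes with a mean of at least 6, fitted alone, 31.2% were called, and 24 of 30 members. For genes at or above the median level, the figures were 21.6% and 26 of 32. The difference between the highest and the lowest number had a median of 0.85 over the members, against 0.25 over all genes, while the residual SD within numbers was 0.11, against 0.12. Without both arrays numbered 1, 10 of the 22 were still called, Fads2, Cyp51, Insig1, Stard4, Hmgcs1, Fdft1, Lss, Scd1, Hsd17b7 and Sqle, against 0.691% of all genes.

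**Figure D1:**
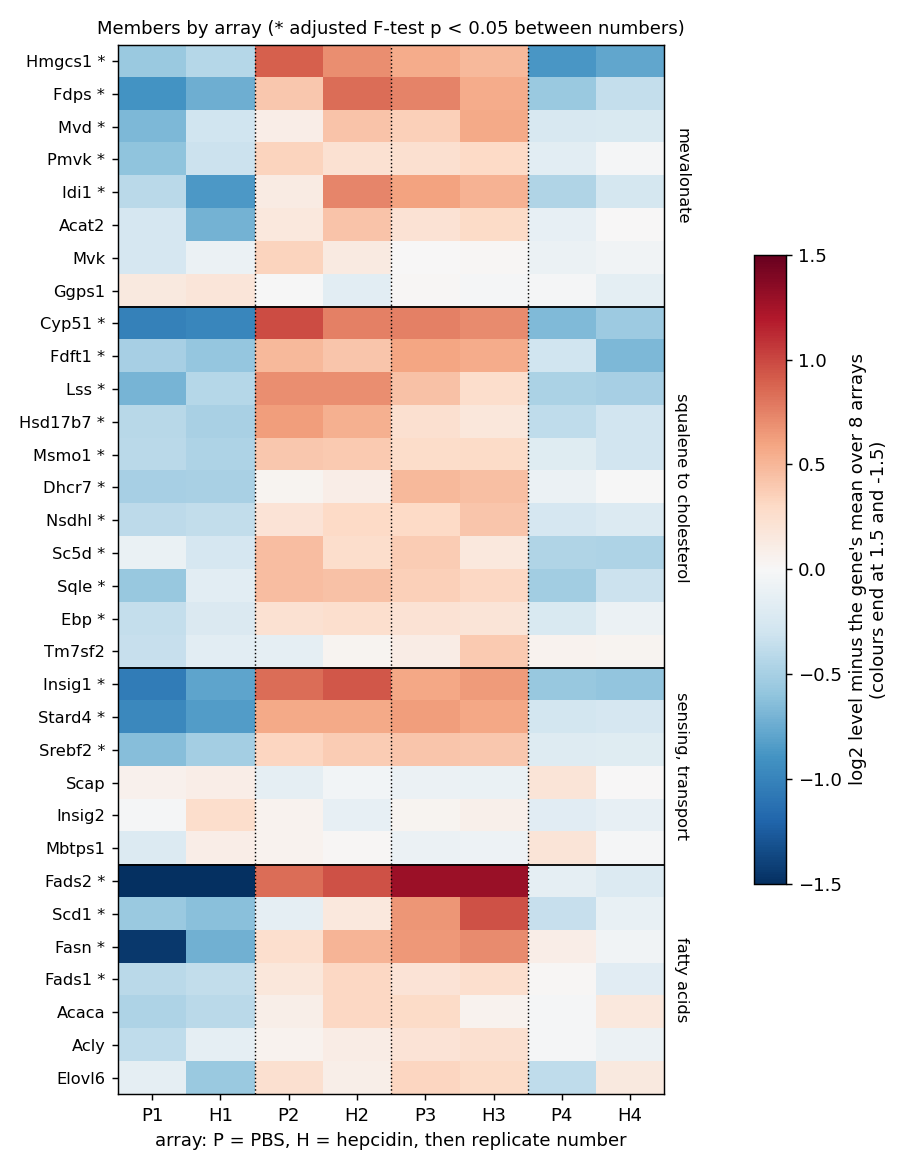
Each cell is the log2 level of 1 gene on 1 array minus that gene's mean over the 8 arrays, with arrays ordered by replicate number (P, PBS, and H, hepcidin) and genes by role. Red is above and blue below the mean, colours end at 1.5 and -1.5 (passed by Fads2 on both arrays numbered 1), and a star marks the 22 genes called in the F test between numbers. Columns with the same number look alike, and Ggps1, Scap, Insig2 and Mbtps1 are pale throughout.

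Among the mevalonate genes, Hmgcs1 (Entrez gene 208715), the HMG-CoA synthase gene at the head of the pathway, stood on numbers 1 to 4 at 8.88, 10.33, 9.99 and 8.56 with PBS and 9.01, 10.13, 9.92 and 8.66 with hepcidin. Both arrays numbered 4 were the lowest, and the highest number was 3.07 times the lowest (residual SD 0.11, limma adjusted p 0.00131). Fdps (110196), which makes farnesyl diphosphate, was at 4.83, 6.13, 6.47 and 5.17 with PBS and 5.00, 6.57, 6.28 and 5.37 with hepcidin, (adjusted p 0.00355). Its levels on numbers 1 and 4 were under the edge of background, so its range was at least 1.66-fold, taken over that edge. Idi1 (319554), the isomerase gene before it, was at 5.29, 5.82, 6.30 and 5.24 with PBS and 4.83, 6.42, 6.21 and 5.43 with hepcidin. Here the arrays with equal numbers differed by up to 0.60, the residual SD was 0.32, and the adjusted p was 0.0361.

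The kinase and decarboxylase genes of mevalonate varied less. Mvd (192156), the decarboxylase, was at 5.46, 6.23, 6.49 and 5.89 with PBS and 5.84, 6.56, 6.70 and 5.90 with hepcidin (adjusted p 0.0109). Pmvk (68603), the phosphomevalonate kinase, was at 6.23, 7.17, 7.07 and 6.67 with PBS and 6.51, 7.06, 7.13 and 6.81 with hepcidin (adjusted p 0.0245). In both genes number 1 was the lowest and number 4 lay between it and numbers 2 and 3. The other 3 mevalonate genes were not called. Mvk, the mevalonate kinase, had a number range of 0.40 (adjusted p 0.234), and Acat2, the cytosolic thiolase, one of 0.76 (0.0888). Ggps1, which makes the geranylgeranyl diphosphate used for protein prenylation and lies on a side branch, had a range of 0.24 (0.397) and was highest on number 1 in both groups.

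Of the genes after farnesyl diphosphate, Cyp51 (13121), the lanosterol demethylase, had the widest range. It was at 6.72, 8.72, 8.49 and 7.08 with PBS and 6.76, 8.50, 8.45 and 7.19 with hepcidin, so that the arrays of numbers 1 and 4 reached at most 7.19 and those of numbers 2 and 3 at least 8.45. The range was 3.65-fold with a residual SD of 0.10 (limma adjusted p 0.000526). Fdft1 (14137), squalene synthase, was at 8.34, 9.33, 9.43 and 8.54 with PBS and 8.26, 9.26, 9.40 and 8.17 with hepcidin (adjusted p 0.00355). Sqle (20775), the squalene epoxidase that is a rate-controlling enzyme of the pathway, was at 8.24, 9.27, 9.16 and 8.28 with PBS and 8.65, 9.25, 9.12 and 8.48 with hepcidin (adjusted p 0.014). Lss (16987), which closes the ring to lanosterol, was at 6.37, 7.77, 7.51 and 6.59 with PBS and 6.64, 7.76, 7.33 and 6.57 with hepcidin (adjusted p 0.00374). In these 3 genes too the arrays numbered 1 and 4 were the 4 lowest.

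The demethylation and reduction steps followed. Msmo1 (66234) was at 10.03, 10.84, 10.71 and 10.26 with PBS and 9.97, 10.83, 10.72 and 10.15 with hepcidin, a smaller range of 1.78-fold at a residual SD of 0.04 (adjusted p 0.00758). Nsdhl (18194), a sterol dehydrogenase, was at 8.08, 8.68, 8.77 and 8.22 with PBS and 8.11, 8.77, 8.89 and 8.27 with hepcidin (adjusted p 0.01), and same-numbered arrays differed by at most 0.12. Hsd17b7 (15490), a sterol ketoreductase, was at 7.33, 8.37, 7.98 and 7.36 with PBS and 7.26, 8.28, 7.91 and 7.45 with hepcidin (adjusted p 0.00463). These 3 genes again had numbers 1 and 4 below numbers 2 and 3 on every array.

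Ebp (13595), the sterol isomerase, had the smallest range among the called genes, 1.44-fold, at 8.11, 8.70, 8.69 and 8.24 with PBS and 8.26, 8.73, 8.67 and 8.38 with hepcidin (adjusted p 0.0394). Sc5d (235293), a sterol desaturase, was at 9.17, 9.73, 9.65 and 8.82 with PBS and 9.02, 9.54, 9.43 and 8.81 with hepcidin (adjusted p 0.0101). In Sc5d number 4 was the lowest and number 1 lay between it and the others. Dhcr7 (13360), which makes cholesterol from its last precursor, was at 8.30, 8.84, 9.28 and 8.70 with PBS and 8.31, 8.89, 9.24 and 8.79 with hepcidin (adjusted p 0.00767), highest on number 3 in both groups. Tm7sf2, a sterol reductase gene, was not called (range 0.50, adjusted p 0.12).

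Sensing genes split. Insig1 (231070), whose product holds SREBP back and which is itself an SREBP target, was at 8.34, 10.23, 9.97 and 8.82 with PBS and 8.60, 10.32, 10.03 and 8.79 with hepcidin, a 3.49-fold range (residual SD 0.08, limma adjusted p 0.000556). Insig2, the related gene, not a classic SREBP target, lay between 7.10 and 7.53 on all 8 arrays, with a range of 1.21-fold between numbers (adjusted p 0.51). Srebf2 (20788), the gene of the SREBP that drives sterol synthesis, was at 8.23, 9.19, 9.29 and 8.67 with PBS and 8.36, 9.25, 9.27 and 8.69 with hepcidin, a 1.99-fold range (adjusted p 0.00442). Stard4 (170459), a cholesterol carrier gene, was at 5.66, 7.19, 7.25 and 6.35 with PBS and 5.79, 7.20, 7.21 and 6.37 with hepcidin, a 2.84-fold range (adjusted p 0.000999).

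Scap, the escort, had number means between 8.14 and 8.33 (adjusted p 0.5). Mbtps1, the Golgi protease that makes the first cut in SREBP, had number means between 7.55 and 7.72 (adjusted p 0.771). Neither passed the test, and whether their spread differs from that of the called genes was not tested.

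**Figure D2:**
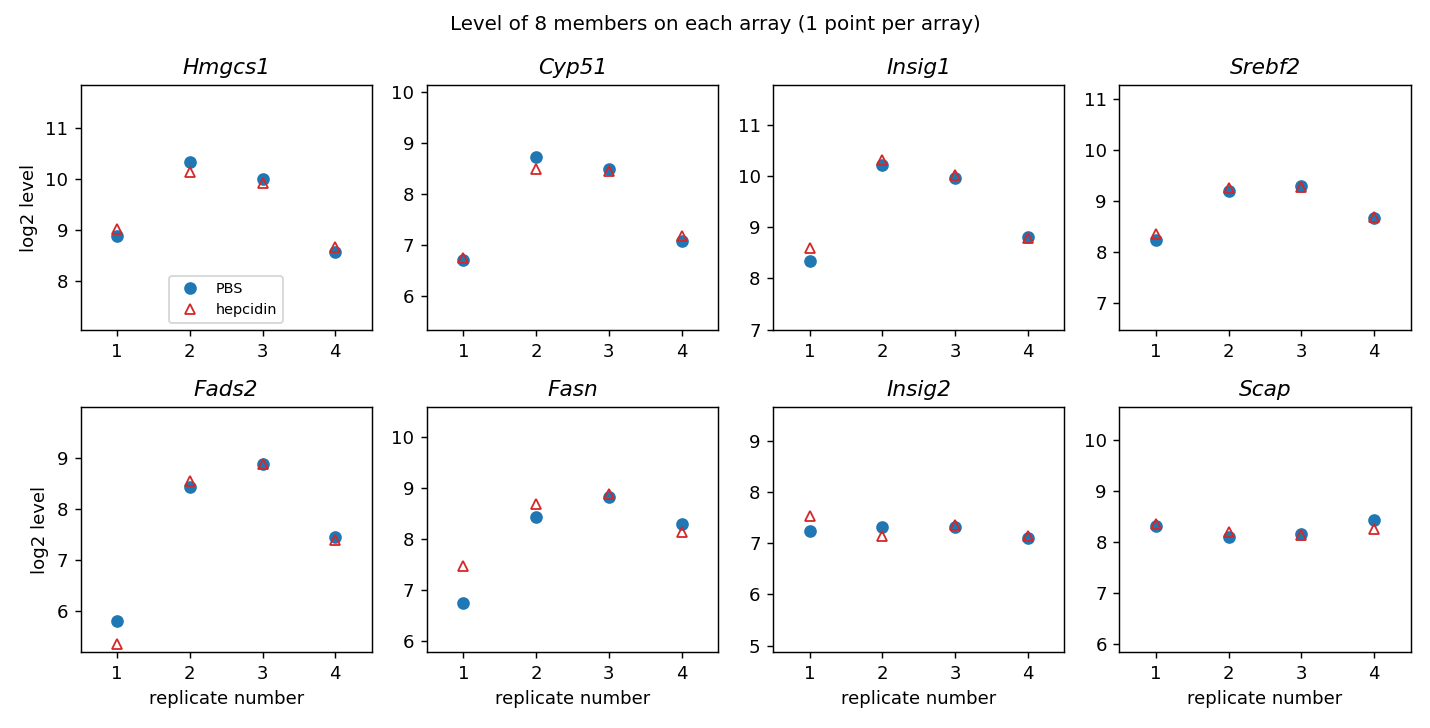
Log2 level of 8 members on each of the 8 arrays, by replicate number, with PBS as filled circles and hepcidin as open triangles, on axes of equal span. Circle and triangle of a number lie close together, and Hmgcs1, Cyp51, Insig1, Srebf2, Fads2 and Fasn differ between numbers, while Insig2 runs from 7.10 to 7.53.

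Among the fatty acid genes, Fads2 (56473), a desaturase of polyunsaturated fatty acids, had the widest range of all members. It was at 5.81, 8.43, 8.87 and 7.45 with PBS and 5.36, 8.54, 8.88 and 7.38 with hepcidin (residual SD 0.17, limma adjusted p 0.000262). The mean of the arrays numbered 1, 5.58, was under the edge of background, so the range was at least 9.39-fold. Scd1 (20249), the stearoyl-CoA desaturase gene, was at 6.47, 6.90, 7.69 and 6.68 with PBS and 6.40, 7.19, 7.99 and 6.92 with hepcidin (adjusted p 0.00413), high on number 3. Fasn (14104), fatty acid synthase, was at 6.74, 8.44, 8.83 and 8.29 with PBS and 7.47, 8.69, 8.89 and 8.13 with hepcidin (adjusted p 0.0079). Its arrays numbered 1 were the 2 lowest and differed from each other by 0.73.

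Fads1 (76267), the partner desaturase of Fads2, was at 9.27, 9.85, 9.88 and 9.70 with PBS and 9.31, 9.99, 9.93 and 9.51 with hepcidin (adjusted p 0.0382). This was a 1.55-fold range, against at least 9.39-fold for Fads2. Acaca, the acetyl-CoA carboxylase gene, had a range of 0.63 (adjusted p 0.0709). Acly, which supplies cytosolic acetyl-CoA, had one of 0.48 (0.129). For Elovl6, an elongase gene, the range was 0.65 at a residual SD of 0.28 (0.244). These 3 were not called.

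Each number was then set against the mean of the other 3 in the same limma fit, as 4 contrasts, each adjusted over all genes. Number 1 was lower for 23 of 32 members, against 4.36% of all genes, with differences from -2.68 (Fads2) to -0.38 (Ebp). It was higher for none. Number 4 was lower for 7 members, Cyp51, Fdft1, Hmgcs1, Hsd17b7, Insig1, Lss and Sc5d, against 1.04% of all genes, and no fatty acid gene was among them. Number 2 was higher for 10 members, against 0.4%, and number 3 for 12, against 0.537%. Number 1 was the lowest of the 4 in both groups for 21 members, against 13.2% of all genes, and number 4 for 3 members, Hmgcs1, Insig2 and Sc5d, against 8.46%. Number 2 was the highest in both groups for 10 members (7 of the 11 later sterol genes and none of the 7 fatty acid genes), against 7.16%, and number 3 for 12 members (4 of the 11 and 5 of the 7), against 8.6%. The 4 contrasts share arrays, so their counts are not independent of each other. They also rest on few arrays. Number 1 was lower for 8 members without PBS 1. Number 4 was lower for 3 without PBS 2 or without Hepcidin 2 and for none without PBS 4 or without Hepcidin 4. Number 2 was higher for none without either array numbered 2 and for 3 without either array numbered 4. Number 3 was higher for 0 to 6 members when any 1 of the 8 arrays was left out, and without both arrays numbered 1 neither number 2 nor number 3 was higher for any member.

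Promoter sequences are shown for 3 members that differed between numbers, Hmgcs1, Cyp51 and Insig1, and for Mbtps1, which was not called, because SREBPs act on DNA close to the start of transcription together with NF-Y. The RefSeq windows (GRCm38.p6) run from 250 bases before to 50 after the start. They are chr13:119690101-119690400 (plus strand), chr5:4104648-4104947 (minus), chr5:28071162-28071461 (plus) and chr8:119558712-119559011 (minus), written 5′ to 3′ on the gene's strand. Capitals mark TCACNCCAC, a form of the sterol regulatory element, and CCAAT, the core of the NF-Y site, on either strand (CCAAT reads ATTGG on the other). Hmgcs1 is shown as the only member window with that element, and the other 3 were chosen after their levels were seen.
Hmgcs1: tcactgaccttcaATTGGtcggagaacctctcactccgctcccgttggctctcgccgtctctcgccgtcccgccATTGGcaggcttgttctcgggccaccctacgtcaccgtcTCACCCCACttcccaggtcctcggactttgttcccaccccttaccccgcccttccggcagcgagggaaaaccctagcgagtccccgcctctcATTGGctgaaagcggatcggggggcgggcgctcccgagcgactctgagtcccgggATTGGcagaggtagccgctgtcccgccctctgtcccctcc
Cyp51: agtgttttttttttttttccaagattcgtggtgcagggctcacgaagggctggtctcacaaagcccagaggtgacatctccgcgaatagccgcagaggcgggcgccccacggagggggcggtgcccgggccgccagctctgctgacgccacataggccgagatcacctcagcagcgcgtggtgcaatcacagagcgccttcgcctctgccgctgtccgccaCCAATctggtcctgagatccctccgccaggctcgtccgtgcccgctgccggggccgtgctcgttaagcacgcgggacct
Insig1: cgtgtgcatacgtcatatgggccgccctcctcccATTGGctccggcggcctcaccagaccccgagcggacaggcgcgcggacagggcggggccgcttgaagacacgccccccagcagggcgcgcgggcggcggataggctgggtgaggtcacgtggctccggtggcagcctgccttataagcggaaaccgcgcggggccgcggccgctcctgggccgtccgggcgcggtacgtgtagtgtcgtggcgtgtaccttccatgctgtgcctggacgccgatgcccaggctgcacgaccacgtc
Mbtps1: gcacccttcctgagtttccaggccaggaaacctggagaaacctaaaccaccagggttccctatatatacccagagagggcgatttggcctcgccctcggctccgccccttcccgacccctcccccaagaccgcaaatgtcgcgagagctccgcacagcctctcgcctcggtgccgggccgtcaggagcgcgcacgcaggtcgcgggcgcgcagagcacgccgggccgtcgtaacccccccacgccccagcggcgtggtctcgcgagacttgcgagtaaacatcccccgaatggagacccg
The Hmgcs1 window holds the element once and CCAAT 4 times, each time as ATTGG. Cyp51 and Insig1 hold 1 CCAAT each and Mbtps1 none.

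Windows were listed for 26 of the 32 members, 32 windows in all, and none was listed for Fdft1, Fdps, Sqle, Stard4, Fads1 and Scd1. TCACNCCAC lay in 1 of the 32, or 3.12%, and in 1.24% of all 32851 windows of the table. With 1 mismatch allowed, it lay in 11, or 34.4%, against 24.2%. CCAAT lay in 20 windows, or 62.5%, against 37.4%, and GGGCGG, the core letters of the Sp1 site, in 24, or 75.0%, against 35.7%. CACGTG, the E-box, lay in 6, or 18.8%, against 7.15%. By gene, CCAAT lay in a window of 15 of the 16 called members that have a window (Fads2 is the exception) and of 5 of the 10 others. The same counts were 14 of 16 and 7 of 10 for GGGCGG, 4 of 16 and 1 of 10 for CACGTG, and 1 of 16 and 0 of 10 for TCACNCCAC. A match is a run of letters and not a measured binding site, and promoters of all kinds of genes make up the comparison.

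Other genes moved with the numbers in the same way. For each member the profile over the 8 arrays was set against the mean of the 19 mevalonate and later sterol genes, leaving out the gene itself. Pearson's r was 0.93 at the median of these 19, highest for Cyp51 at 0.99, and lower for Tm7sf2 at 0.54 and Ggps1 at -0.50. It was 0.83 at the median of the 7 fatty acid genes, 0.99 for Insig1, 0.97 for Srebf2 and Stard4, 0.00 for Insig2, -0.09 for Mbtps1 and -0.84 for Scap. The 8 points are 4 pairs of like arrays, so r here describes the 4 numbers and has no test.

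The 10 genes outside the members with the highest r, among 9245 with a mean level of at least 6, were Cenpa, Spag5, Incenp, Aurkb, Melk, Kif18b, Cdca2, H2bc18, Cdkn2c and Bub1b, with r from 0.986 to 0.996. The median r of the 9245 was 0.10. Cenpa, the centromere histone gene, stood on numbers 1 to 4 at 7.93, 9.18, 9.08 and 8.05 with PBS and 8.00, 9.25, 9.08 and 8.11 with hepcidin. Aurkb, a mitotic kinase gene, was at 8.79, 9.85, 9.95 and 9.17 with PBS and 8.90, 10.01, 9.98 and 9.20 with hepcidin. In both, numbers 1 and 4 were below numbers 2 and 3 on every array, an order that the choice by r favours.

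The mean of the cell cycle list showed this order, though not each of its genes. Its 14 measured genes had means of 9.71, 10.30, 10.30 and 9.82 with PBS and 9.65, 10.34, 10.33 and 9.83 with hepcidin on numbers 1 to 4. In the limma F test 11 of the 14 were called, against 5.6% of all genes. On number 1, all 14 were below the mean of the other 3 numbers, 9 of them called. On number 4, 10 were below the mean of the other 3, 4 of them called. The replication genes Mcm2, Mcm3, Mcm5 and Pcna were above it by 0.21, 0.14, 0.22 and 0.15, none called. The mevalonate list had 6.55, 7.28, 7.33 and 6.67 with PBS and 6.58, 7.40, 7.33 and 6.76 with hepcidin. The later sterol list had 7.86, 8.75, 8.72 and 8.02 with PBS and 7.93, 8.72, 8.70 and 8.04 with hepcidin. The fatty acid list had 7.39, 8.34, 8.64 and 8.01 with PBS and 7.40, 8.47, 8.67 and 8.08 with hepcidin.

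Markers of some other cells and states moved with the numbers too, and their part in the members' differences was not tested. The counts called here stand against 5.6% of all genes. Among genes with a mean of at least 6, fitted alone, 31.2% were called, and these lists were not counted in that fit. Neutrophil and precursor markers, 6 of 12 of them above the edge of background, had means of 4.83, 6.16, 5.96 and 5.75 with PBS and 4.70, 6.13, 5.92 and 5.75 with hepcidin, and 9 of 12 were called in the F test. Their summed level ran from 8.96 to 10.69 with PBS and from 8.99 to 10.86 with hepcidin. This sum, made on the linear scale, rests most on Mmp8. That gene was at 7.84, 9.45, 8.19 and 10.04 with PBS and 8.05, 9.35, 8.08 and 10.25 with hepcidin, unlike the list mean. Interferon-stimulated genes, 13 measured, were at 7.28, 8.26, 8.33 and 8.63 with PBS and 7.43, 8.18, 8.23 and 8.55 with hepcidin, low on number 1 and highest on number 4, and 11 were called. Macrophage markers were at 10.91, 11.33, 11.42 and 11.48 with PBS and 11.04, 11.37, 11.42 and 11.48 with hepcidin, and 2 of 8 were called. This share of 25% does not set the macrophage list apart. For the 9 fibroblast and stroma genes and the 6 adipocyte genes 0 were called, and 1 of 7 dendritic cell genes was. At an unadjusted p under 0.05 these were 2 of 9 and 0 of 6, against 20.6% of all genes. Of the 8 endothelial genes 1 was called, Vwf, which was highest on number 1.

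**Figure D3:**
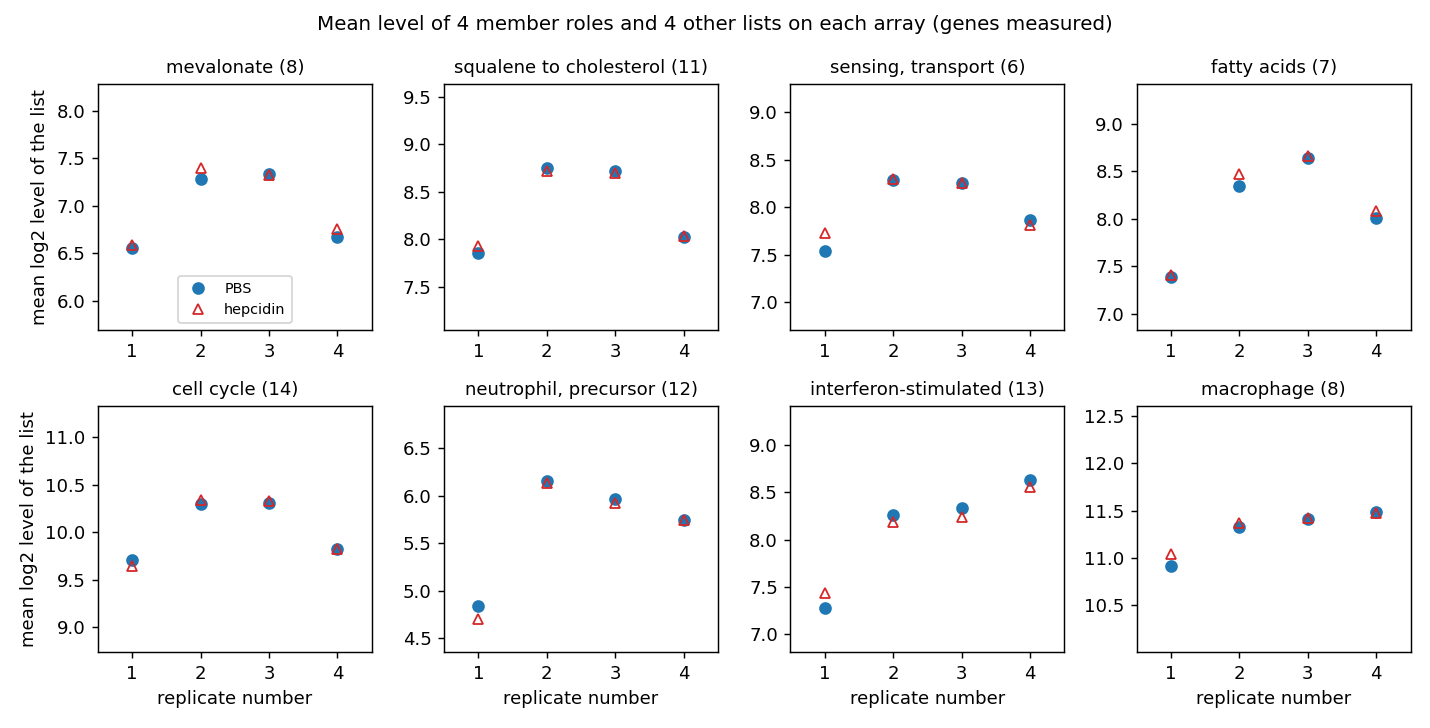
Mean log2 level of the 4 roles of members (top) and of 4 other lists (bottom) on each array, by replicate number, with PBS as filled circles and hepcidin as open triangles, on axes of equal span. The mean of the cell cycle list is low on numbers 1 and 4, like the means of the sterol lists, while interferon-stimulated genes are highest on number 4 (8.63 and 8.55).

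Of 23 other genes of sterol and fatty acid metabolism with a named probe set, 5 were called in the F test between numbers. This is a share of 21.7%, against 5.6% of all genes. Among all genes with a mean of at least 6, fitted alone, 31.2% were called, and calls within this list were not counted in that fit. Scd2, the second stearoyl-CoA desaturase gene, was at 9.06, 10.86, 11.02 and 10.01 with PBS and 8.82, 10.93, 11.07 and 9.90 with hepcidin. Its level on number 1 was the lowest in both groups, as for Fads2. Lpin1 (phosphatidate phosphatase), Acsl3 (an acyl-CoA synthetase), Srebf1 (the gene of the SREBP of fatty acid synthesis) and Aacs (acetoacetyl-CoA synthetase) had ranges of 1.09, 0.84, 0.84 and 0.75. Of 11 genes of sterol efflux and oxysterols, 4 were called, against the same 5.6% of all genes. Of these 11 genes, 10 lay above the edge of background. Beside the 31.2% of genes with a mean of at least 6, the 36.4% of this list does not set it apart. Abca1, the cholesterol exporter, was at 8.23, 9.10, 9.16 and 9.33 with PBS and 8.53, 9.21, 9.16 and 9.37 with hepcidin, low on number 1 and highest on number 4. Ch25h, which makes an oxysterol, was at 7.00, 7.61, 8.32 and 8.25 with PBS and 7.35, 7.74, 8.44 and 8.22 with hepcidin. Mylip, the ubiquitin ligase that removes the LDL receptor, was lowest on number 3, at 8.53, 8.35, 8.01 and 8.74 with PBS and 8.60, 8.38, 7.93 and 8.69 with hepcidin. Abca9, a transporter gene, was called as well, highest on number 3, with its mean on every other number under the edge of background.

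Hepcidin for 1 h did not move these genes by more than the spread between arrays. No member passed in limma (adjusted p under 0.05 over all genes), nor did any other gene (0%), and none had an unadjusted p under 0.05, against 2.86% of all genes. The PBS and Hepcidin arrays overlapped for all 32 members, and the groups were apart for 1.88% of all genes. With shares of all genes this small, 0 of 32 does not set the members apart in either count. The differences between numbers also widen both groups of these genes. The log2 changes, hepcidin minus PBS, had a median of 0.03 and ran from -0.14 to 0.23, with 21 of 32 above 0, and the median over all genes was 0.00. By role the medians were 0.03 for mevalonate genes, 0.01 for later sterol genes, 0.04 for sensing and transport and 0.05 for fatty acid genes. Over the 32 members the medians in pairs 1 to 4 were 0.09, 0.04, -0.01 and 0.02.

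In the fit without the replicate number, which also gave the SEs here, the 4 members with the smallest unadjusted p were Tm7sf2, Mvd, Ggps1 and Sc5d. The Mvd difference was 0.23 ± 0.25 (SE), with 0.38, 0.33, 0.21 and 0.01 in pairs 1 to 4, and that of Tm7sf2 0.16 ± 0.14. The Sc5d difference was -0.14 ± 0.22, lower with hepcidin in 4 of 4 pairs, and that of Ggps1 -0.07 ± 0.09. Besides Mvd, Nsdhl was higher in 4 of 4 pairs, making 2 of 32 members, against 5.69% of all genes. Besides Sc5d, Fdft1 was lower in 4 of 4, again 2 of 32, against 5.92%.

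Because same-numbered arrays were alike, the interval depends on whether the number is in the model. Without it, half-widths of the 95% confidence interval of the hepcidin change had a median of 0.51 over the members, against 0.24 over all genes, and Fads2 had the widest interval, from -1.91 to 1.71. With the replicate number as a block the median half-width was 0.19, against 0.20 over all genes, and all 32 intervals lay between -0.35 (Elovl6) and 0.54 (Fasn). In that fit Mvd alone had an unadjusted p under 0.05 (0.0258), with an interval from 0.04 to 0.43 and an adjusted p of 0.967 in limma, and no member passed. Next by unadjusted limma p in the blocked fit came Scd1 (0.0586), Tm7sf2 (0.0757) and Sc5d (0.0956), while Ggps1 had 0.346. The Scd1 change was 0.19, with -0.07, 0.29, 0.31 and 0.24 in pairs 1 to 4. The blocked SE was 0.08 for Mvd and 0.07 for Sc5d. Of all genes 1 passed in the blocked fit, the chemokine gene Cxcl2. For Hmgcs1 the blocked interval ran from -0.20 to 0.18, for Insig1 from -0.08 to 0.27, for Srebf2 from -0.11 to 0.21 and for Sqle from -0.08 to 0.36. Changes beyond these bounds are outside the 95% intervals of the blocked fit, and changes between them are inside. The smallest change that 4 pairs can detect was not tested.

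**Figure D4:**
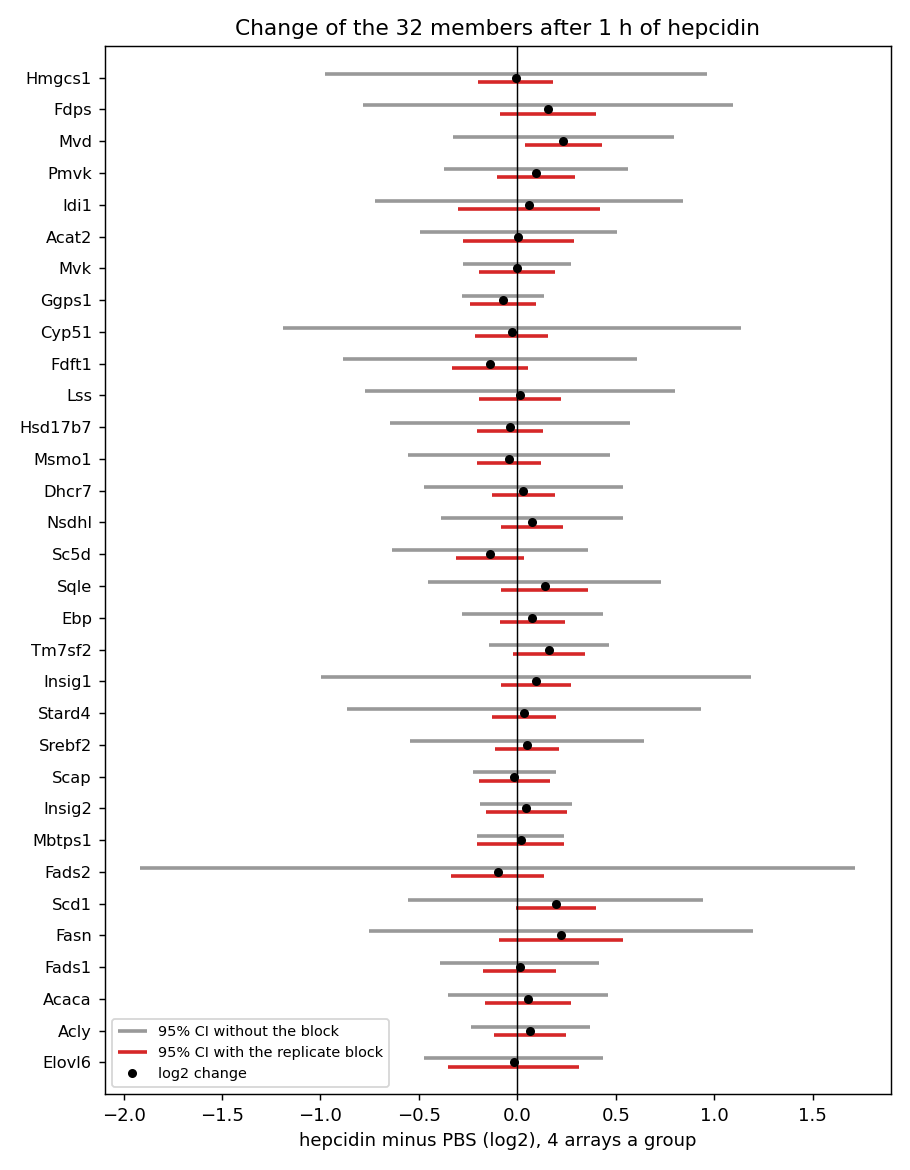
Log2 change (hepcidin minus PBS, black points) of each of the 32 members with its 95% confidence interval from limma, in grey without and in red with the replicate number as a block, genes grouped by role. All grey intervals cross 0, the red ones are narrower for the members that differ between numbers, and that of Mvd alone lies above 0 (0.04 to 0.43, adjusted p 0.967).

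The 23 other genes of the pathway had a median change of 0.01, and 0 of them passed in limma. None had an unadjusted p under 0.05 either. The smallest unadjusted p among them belonged to Gpam (-0.14 ± 0.09), Elovl1 (0.08 ± 0.08) and Nus1 (0.07 ± 0.08). Of the 11 efflux genes, with a median of 0.06, 0 passed and 1 had an unadjusted p under 0.05, the nuclear receptor gene Rxrb, at 0.19 ± 0.08. Nr1h3, the sterol-sensing nuclear receptor LXRα, was at 0.15 ± 0.13 and Abca9 at 0.16 ± 0.22.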

How the data were processed

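The 8 Affymetrix arrays were read from the table of log2 values deposited by the authors, made with RMA (affy 1.36.1), per the submitters' processing notes. It holds 24973 probe sets, with values from 1.73 to 13.6. The platform annotation gave 1 symbol for 24015 and none for 958. The probe set number is the Entrez gene number, and 1 member, Acat2, was named by it through the RefSeq table. For 4 symbols with several probe sets the brightest was kept. The members and lists were chosen with earlier results of these data known.

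Hepcidin was compared with PBS on these log2 values in limma 3.58.1 (R 4.3.3, lmFit and eBayes, Benjamini-Hochberg over 24012 genes, threshold 0.05) without a replicate term. Numbers were compared with treatment as a covariate. Alternatives were the replicate block, other scalings, level filters, variance settings and arrays left out. Same-numbered arrays deviated together from their group means (r 0.344 to 0.548 over 4 pairs, against -0.356 to 0.124 over 12 other pairs), all above the bound of 0.1, so the numbers were taken to pair the arrays. The fit was tried on simulated data, with added shifts larger than any member's hepcidin change and otherwise no differences between numbers. That trial does not bear on changes of the size seen here. The number of arrays limits the precision.

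Genes named were the 32 members, the called ones on every array, the 10 genes most alike, and the called or lowest-p genes of the other lists. Motifs were searched on both strands.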

Additional observations from a re-analysis of the deposited data

How the results depend on the processing

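No member passed in the hepcidin comparison under any alternative run. Over all genes limma called 0, and 3 among genes with a mean of at least 6 (Tnf, Nfkbie, Nfkbiz). With the replicate block 1 gene passed (Cxcl2), with the block as a random term 5, and with the block and the level filter together 6. The block without both arrays numbered 1 or numbered 2 gave 1 each. Leaving out single arrays gave 0 to 2 genes, and a median member change from -0.0905 to 0.1974, where each array left out leaves its partner unpaired. The cause of these moves was not tested. The Abca9 change ran from -0.0233 (reversed, without Hepcidin 3) to 0.3171 with single arrays left out, and that of Nus1 reversed to -0.0040 in the replicate block without both arrays numbered 1. For the members, no form of the block changed a call.

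The F test between numbers called 2895 genes with a mean of at least 6, 2591 at or above the median level and 2846 with trended, robust variance. Single arrays left out gave 509 to 827, and both arrays numbered 1 or 4 left out gave 166 and 819, tests with fewer samples. Members called ranged from 16 to 20 with single arrays left out and fell to 10 without number 1. Number 4 was lower for 13, 12 and 11 members under the level filters (6, median) and trended variance, 15 without number 1, 1 without number 2, 1 without number 3, and 0 to 6 with single arrays left out. Number 2 was higher for 17 (mean of at least 6), 16 (trended variance), 0 without number 1, 4 without number 4, and 0 to 8 with single arrays left out. Number 3 was higher for 22, 20, 0, 19 without number 2, 6 without number 4, and 0 to 6 with single arrays left out. Number 1 was lower for 14 without number 3 and 8 to 21 with single arrays left out. The sterol element with 1 mismatch lay in 11 member windows. Of values for single genes in the F test, 755 kept their side of the threshold, 87 lost it and 16 gained it, and Ebp and Fads1 were lost most often. Values near background compress differences.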
